A study of Mus musculus with 12 samples.

Results

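The endothelial and angiogenesis genes described here are 10 genes of blood vessel lining and of vascular endothelial growth factor (VEGF) and angiopoietin signalling: Pecam1, Cdh5, Kdr, Flt1, Vegfa, Tek, Tie1, Eng, Emcn and Vwf. They were chosen by name, and all 10 were found among the 20632 gene symbols of the count tables. The tissue was gonadal (peri-uterine) white fat, taken from 12 mice at day E17.5 of pregnancy and sequenced from the 3' ends of transcripts, with 1 library for each animal number in the titles. The 4 KO Treg animals carried the label Tnfrsf11a (Rank) with Foxn1 Cre and received a treatment labelled Treg. The 4 KO vehicle animals had the same genotype label and received vehicle. The 4 WT vehicle animals carried the same gene label without Cre and received vehicle. Foxn1, whose name the Cre carries, is active in thymic epithelium and skin, so the Cre is not one directed at the vessels or adipocytes of the fat. The labels do not say what the Treg treatment consisted of.

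Endothelial cells line every blood vessel and, in white fat, form the capillaries that bring lipid and insulin to adipocytes. VEGF-A, made by adipocytes and other parenchymal cells, acts on endothelial cells through the receptor tyrosine kinases VEGFR2 (Kdr), which carries most of the growth signal, and VEGFR1 (Flt1), which binds VEGF-A tightly and limits it. Angiopoietins act through a second receptor, TIE2 (Tek), with TIE1 as its partner, and govern whether vessels are quiet or remodelling.

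Total counts per library were 6583263 to 8746946 (KO Treg), 8350348 to 9617503 (KO vehicle) and 5551967 to 12972655 (WT vehicle). Levels are CPM, the count of a gene per 1e+06 counts of its library on TMM-scaled totals, and all 10 genes passed the filter on low counts. Their counts per library ran from 72 to 155 for Tie1, the most thinly covered, and from 3023 to 6531 for Pecam1. Adipocyte genes (5 symbols, led by Adipoq and Cidec) summed to between 8983 and 13350 CPM in every library, and the endothelial genes were detected beside them in all 12. KO Treg 2 and KO vehicle 1 held placental transcripts, at summed levels of 79.8 and 30.5 CPM over 8 symbols, against at most 1.52 CPM in any other library. KO vehicle 2, KO vehicle 3 and WT vehicle 1 held brown-like adipocyte transcripts (Ucp1, Cidea and Elovl3) at 1951, 1044 and 5079 CPM, against at most 338.3 CPM in any other library. In whole tissue, fewer cells of a type and less RNA per cell cannot be told apart.

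The positions below are those of GENCODE M21 on GRCm38 (mm10, the build named in the submitters' processing notes). Kdr (chr5:75932827-75978458) and Flt1 (chr5:147561604-147726011) both lie on the minus strand of chromosome 5. Vegfa lies at chr17:46016993-46032369, Tek at chr4:94739289-94874976, Tie1 at chr4:118471191-118490061 and Eng at chr2:32646595-32682669. Pecam1 lies at chr11:106654217-106750628, Cdh5 at chr8:104101625-104144511, Emcn at chr3:137341067-137432185 and Vwf at chr6:125546774-125686679. Exons of Eng overlap those of Fpgs on the opposite strand, and without a stated strand setting the reads of the pair cannot be told apart. No exon of the other 9 genes overlapped that of another annotated gene. Flt1 has 2 annotated protein-coding transcripts, whose 3' ends lie at 147561604 and, 73555 bases earlier along the gene, at 147635159. A soluble VEGFR1 made from a shortened transcript is known, but the counts are per gene symbol and do not separate these ends.

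Kdr and Flt1 had the lowest unadjusted p among the 10 genes in the comparison of treated and vehicle knockouts, and the correlation of their levels across libraries was the second highest of the 45 pairs, so their upstream sequences are shown. These are the 250 bases before the annotated start from RefSeq (GRCm38.p6, minus strand), at chr5:75978456-75978705 for Kdr and chr5:147726012-147726261 for Flt1. RefSeq promoters were matched for 7 of the 10 genes. Capitals mark the letters GGAA or their complement TTCC, the core bound by ETS transcription factors, a family with members that act in endothelial cells.
Kdr: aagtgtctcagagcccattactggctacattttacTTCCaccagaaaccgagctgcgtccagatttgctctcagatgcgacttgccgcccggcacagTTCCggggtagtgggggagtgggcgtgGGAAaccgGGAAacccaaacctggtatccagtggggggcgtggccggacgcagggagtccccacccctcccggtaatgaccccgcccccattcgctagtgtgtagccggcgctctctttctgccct
Flt1: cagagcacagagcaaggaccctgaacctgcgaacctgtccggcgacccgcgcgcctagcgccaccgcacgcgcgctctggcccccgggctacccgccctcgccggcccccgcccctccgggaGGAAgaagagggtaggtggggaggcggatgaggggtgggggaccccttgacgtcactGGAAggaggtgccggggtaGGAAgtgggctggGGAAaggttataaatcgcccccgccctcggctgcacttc
Each sequence holds 4 such cores, where the median promoter holds 3 and 93.5% of all 32851 RefSeq promoters of this length hold at least 1. The longer form CCGGAA, which contains the core, occurs once upstream of Kdr and in 12.03% of all promoters. TATAAA occurs once upstream of Flt1 and in 12.4% of all promoters. The hypoxia core ACGTG was matched in neither sequence, on either strand, and 16.6% of promoters hold it. Kdr and Flt1 sequences have a GC content of 61.6% and 70.4%, against a median of 52.4% over all promoters. These are matches of letters, not measured binding sites.

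The first comparison asked how vessel genes stood in knockouts given vehicle relative to wild types given vehicle. None of the 10 genes passed the threshold of an adjusted p of 0.05 in edgeR, and 0 did in DESeq2. Flt1 and Vwf came nearest, Flt1 with a higher and Vwf with a lower mean in KO vehicle. In the same fit 34 of 12175 genes passed, 0.279% of those tested. At an unadjusted p under 0.05 there were 2 of the 10 genes, where 12.4% of all genes tested had one. The libraries of both groups did not overlap for 1 of the 10 genes, Flt1, against 6.51% of all genes tested. The log2 fold change was above 0 for 7 of the 10 genes and 49.2% of all genes, with a median of 0.09 over the 10 and -0.0039 over all genes. That median was -0.03 without KO vehicle 1, 0.0113 without WT vehicle 1 and -0.03 without the 2 libraries with placental transcripts, so its sign rested on KO vehicle 1.

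The second comparison set treated against vehicle animals of the knockout genotype. Again 0 of the 10 genes passed in edgeR and 0 in DESeq2, and 1 gene of 12175 passed in edgeR, 0.00821%. Kdr and Flt1 had lower means in KO Treg, and they were the 2 of the 10 genes with an unadjusted p under 0.05, where 8.77% of all genes tested had one. Groups overlapped for all 10 genes, while 5.04% of all genes tested had groups that did not. Values below 0 on the log2 scale were found for 7 of the 10 genes and 50.3% of all genes, with a median of -0.15 over the 10 and -0.0018 over all genes. Here it was -0.028 without KO vehicle 1, -0.071 without KO vehicle 4, -0.066 without KO Treg 2 and 0.027 without the 2 libraries with placental transcripts. Without the 3 libraries rich in brown-like transcripts it was -0.26. That fit keeps only KO vehicle 1 and KO vehicle 4 of the KO vehicle group. These were above the mean of the 12 libraries for 9 and 8 of the 10 genes. Both the first and the second comparison use the 4 KO vehicle libraries, so their values for a gene are not independent. Set against WT vehicle, KO Treg had 0 of the 10 genes called in edgeR and in DESeq2, as for all genes in edgeR (0%). There 0 of the 10 had an unadjusted p under 0.05 (2.87% of all genes) and 0 had groups that did not overlap (1.63% of all genes). The number with an unadjusted p under 0.05 was 3 without KO Treg 2 and 2 without the 2 libraries with placental transcripts. It was 1 without WT vehicle 3 and 1 without WT vehicle 4. Shares over all genes in those fits were not computed. Differences were below 0 for 7 of the 10 genes and 51% of all genes, with a median of -0.14 over the 10, which was -0.088 without WT vehicle 3.

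**Figure D1:**
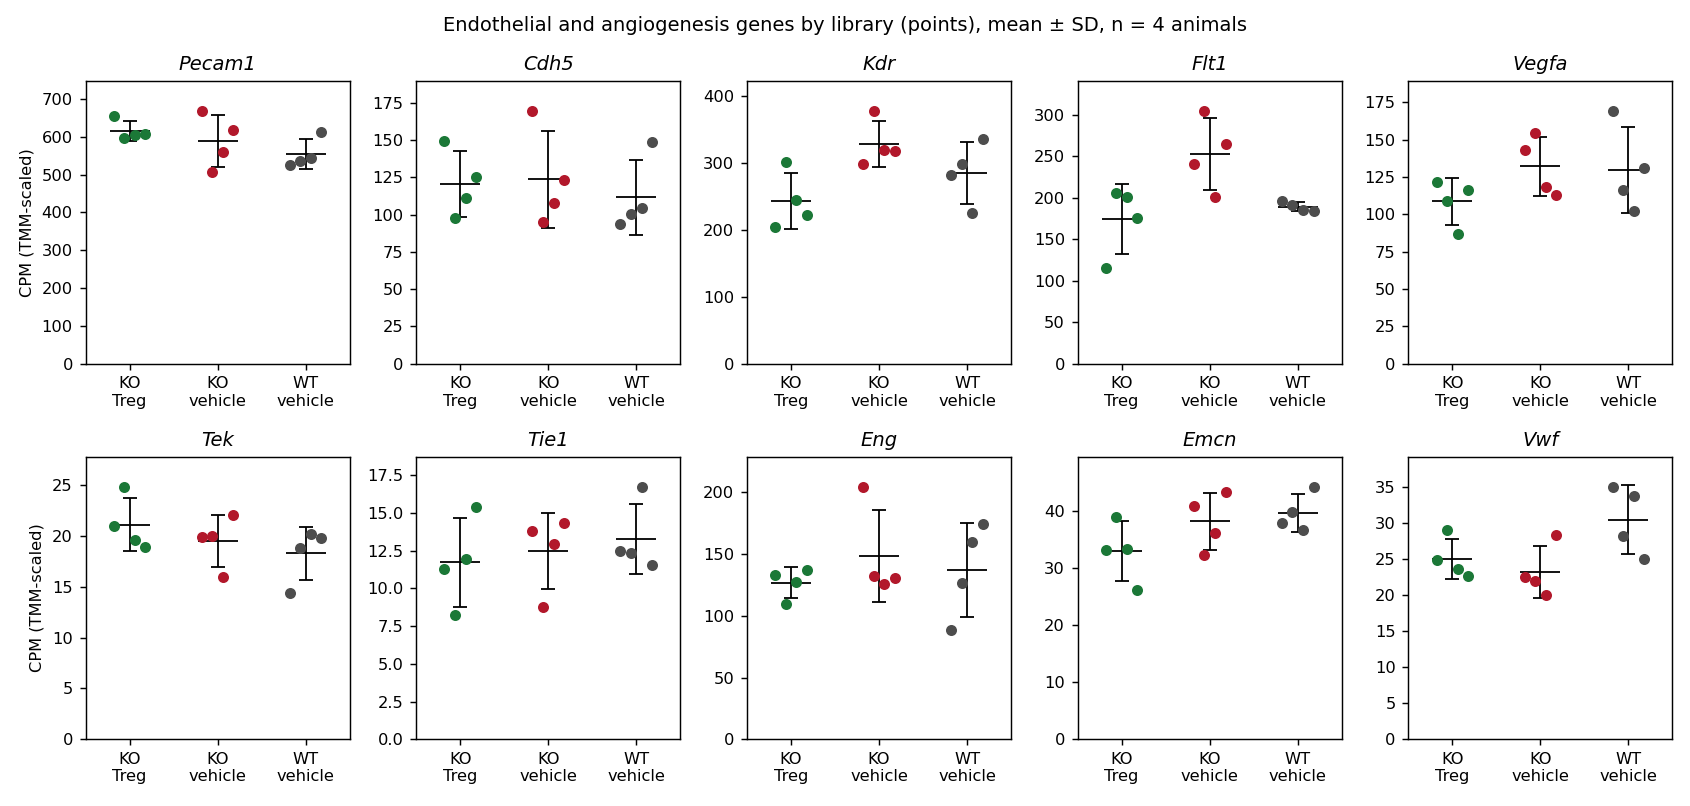
Level of each of the 10 genes in CPM on TMM-scaled totals, with 1 point per library and the mean ± SD of each group (n = 4 animals); each axis starts at 0. The groups overlap for most genes, and Flt1 is the single gene for which all 4 KO vehicle points (201 to 304 CPM) sit above all 4 WT vehicle points (185 to 196 CPM).

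Vegfa encodes the ligand VEGF-A. Its level was 122, 109, 86.9 and 117 CPM in KO Treg 1 to 4. It was 143, 155, 118 and 113 CPM in KO vehicle 1 to 4, and 169, 116, 102 and 131 CPM in WT vehicle 1 to 4. The range of WT vehicle covered all 4 KO vehicle libraries, and 3 of the 4 KO Treg libraries lay within it. Vegfa had a log2 fold change of 0.03 ± 0.16 (SE) for KO vehicle against WT vehicle (edgeR adjusted p = 0.971). It was -0.28 ± 0.16 for KO Treg against KO vehicle (edgeR adjusted p = 0.674) and -0.26 ± 0.16 for KO Treg against WT vehicle (edgeR adjusted p = 1). The highest Vegfa level was that of WT vehicle 1, the library with the most brown-like adipocyte transcripts. Without the 3 libraries rich in those transcripts, the difference between KO Treg and WT vehicle was -0.10 (log2), as without WT vehicle 1 alone. The genes whose log2 CPM followed Vegfa most closely over the 12 libraries were Phospho1, Hccs, Idh3a, Yipf6 and Fam126b, with Pearson r of 0.92, 0.91, 0.91, 0.90 and 0.88. Hccs encodes the synthase that attaches haem to cytochrome c, and Idh3a a subunit of mitochondrial isocitrate dehydrogenase. These genes were picked by that r from all genes tested, so it is a description with no test.

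Of the other VEGF ligands, Vegfb, made by cells rich in mitochondria, averaged 116 ± 18.1 CPM in KO Treg, 89.6 ± 13.4 CPM in KO vehicle and 120 ± 27.9 CPM in WT vehicle (SD, n = 4). Figf, which encodes the lymphatic and vascular ligand VEGF-D, averaged 45.1 ± 7.06 CPM in KO Treg, 31.6 ± 7.34 CPM in KO vehicle and 40.6 ± 19.0 CPM in WT vehicle. Pgf, placental growth factor, a ligand of VEGFR1 alone among the VEGF receptor kinases, was near the limit of detection, with 8 to 39 counts per library. Its level averaged 1.85 ± 0.723 CPM in KO Treg, 3.39 ± 0.986 CPM in KO vehicle and 2.06 ± 0.928 CPM in WT vehicle. Vegfc, the main lymphatic ligand, had 2 to 14 counts per library and did not enter the tests. None of the ligands tested passed in any comparison. The lowest edgeR adjusted p was 0.304, for Vegfb in KO vehicle against WT vehicle.

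Flt1 encodes VEGFR1, the tight VEGF-A binder that also exists as a soluble trap. Its level was 115, 206, 202 and 175 CPM in KO Treg 1 to 4. It was 241, 304, 201 and 265 CPM in KO vehicle 1 to 4, and 196, 192, 185 and 185 CPM in WT vehicle 1 to 4. The WT vehicle libraries were tightly grouped, with an SD of 5.44 CPM around 189 CPM, while the SD was 41.8 CPM in KO Treg and 43.3 CPM in KO vehicle. All 4 KO vehicle libraries lay above all WT vehicle libraries. KO Treg and KO vehicle overlapped, since KO Treg 2 and KO Treg 3 were just above the lowest KO vehicle library. KO Treg 1 was the lowest of the 12 libraries.

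The log2 fold change of Flt1 was 0.42 ± 0.17 (SE) for KO vehicle against WT vehicle, with a 95% interval of 0.06 to 0.78 that takes no account of the number of genes tested. Its unadjusted p was 0.0254, rank 987 among 12175 genes, and it did not pass (edgeR adjusted p = 0.312). For KO Treg against KO vehicle it was -0.53 ± 0.17, with a 95% interval of -0.89 to -0.18, an unadjusted p of 0.00612, rank 208, and no call (edgeR adjusted p = 0.356). KO Treg and WT vehicle differed by -0.12 ± 0.17 (edgeR adjusted p = 1). All 4 KO vehicle animals belong to the lower of 2 series of animal numbers in the titles, which the labels do not call a batch. Within that series alone the log2 fold change was 0.37 for KO vehicle against WT vehicle and -0.63 for KO Treg against KO vehicle. The comparison of KO Treg with KO vehicle was -0.37 without KO Treg 1. Without the 2 libraries that held placental transcripts (KO vehicle 1 and KO Treg 2), the log2 fold change was 0.44 for KO vehicle against WT vehicle. For KO Treg against KO vehicle it was then -0.65. Placental trophoblasts make Flt1, and the part of these transcripts in its level was not tested.

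Kdr encodes VEGFR2, the main signalling receptor for VEGF-A on endothelial cells. Its level was 204, 301, 245 and 223 CPM in KO Treg 1 to 4. It was 298, 378, 320 and 318 CPM in KO vehicle 1 to 4, and 283, 298, 225 and 337 CPM in WT vehicle 1 to 4. In KO Treg, 3 libraries lay below all 4 KO vehicle libraries, and KO Treg 2 lay just above the lowest of them. KO vehicle overlapped WT vehicle. The log2 fold change was 0.20 ± 0.15 (SE) for KO vehicle against WT vehicle (edgeR adjusted p = 0.649), and 0.09 without the 3 libraries rich in brown-like transcripts. It was -0.43 ± 0.15 for KO Treg against KO vehicle, with a 95% interval of -0.75 to -0.11, an unadjusted p of 0.0113, rank 323, and no call (edgeR adjusted p = 0.421). This difference was -0.33 without the libraries rich in brown-like transcripts (edgeR unadjusted p = 0.107). Within the lower number series it was -0.36 (edgeR unadjusted p = 0.0896), and without KO vehicle 2 -0.34 (edgeR unadjusted p = 0.0514). Without the libraries with placental transcripts it was -0.59. For KO Treg against WT vehicle the log2 fold change was -0.23 ± 0.15 (edgeR adjusted p = 1).

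The levels of Kdr and Flt1 were correlated, with a Pearson r of 0.77 and a Spearman rho of 0.63 between their log2 CPM over the 12 libraries, and a Pearson r of 0.58 after the group means were removed. This is given as a description, with no test, since the pair was chosen after its values were seen. Within each library Flt1 stood at 0.565, 0.685, 0.823 and 0.788 of the Kdr level (CPM) in KO Treg 1 to 4. The ratio was 0.806, 0.806, 0.630 and 0.836 in KO vehicle 1 to 4, and 0.692, 0.644, 0.824 and 0.548 in WT vehicle 1 to 4. The ratio overlapped among all 3 groups.

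**Figure D2:**
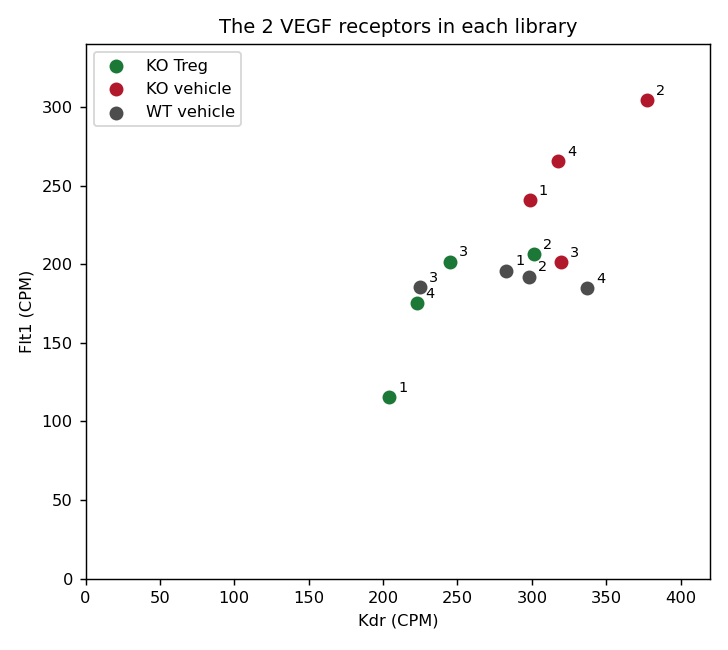
Flt1 against Kdr in CPM, with 1 point per library, coloured by group and numbered by replicate; both axes start at 0. KO vehicle 2 is highest for both genes (378 and 304 CPM) and KO Treg 1 lowest for both (204 and 115 CPM).

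The neuropilins are co-receptors that help VEGF ligands bind. Nrp1 averaged 231 ± 40.3 CPM in KO Treg, 303 ± 33.3 CPM in KO vehicle and 252 ± 32.6 CPM in WT vehicle (SD, n = 4). All 4 KO Treg libraries (173 to 261 CPM) lay below all 4 KO vehicle libraries (270 to 349 CPM), but Nrp1 did not pass (log2 fold change -0.39 ± 0.15 SE, edgeR adjusted p = 0.465). Groups did not overlap for 5.04% of all genes tested in that comparison. Nrp2 averaged 65.1 ± 5.25 CPM in KO Treg, 72.2 ± 11.7 CPM in KO vehicle and 74.2 ± 14.2 CPM in WT vehicle. Flt4, which encodes the lymphatic receptor VEGFR3, averaged 6.46 ± 1.23 CPM in KO Treg, 5.82 ± 0.896 CPM in KO vehicle and 6.81 ± 1.93 CPM in WT vehicle. Neither Nrp2 nor Flt4 passed in any comparison. Of the 8 symbols listed for the VEGF family besides the members, 7 were in the tables (Figf stands for Vegfd), 6 were tested and 0 were called in each comparison by edgeR.

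Tek encodes TIE2, the angiopoietin receptor. Its level was 21.0, 24.8, 19.6 and 18.9 CPM in KO Treg 1 to 4. It was 19.9, 19.95, 15.98 and 22.04 CPM in KO vehicle 1 to 4, and 14.4, 18.8, 20.1 and 19.8 CPM in WT vehicle 1 to 4. The groups overlapped, and the spread within each group was 12.4% to 14.5% of its mean (SD). The log2 fold changes were 0.10 ± 0.16 (SE) for KO vehicle against WT vehicle, 0.12 ± 0.16 for KO Treg against KO vehicle and 0.21 ± 0.16 for KO Treg against WT vehicle, and none passed (lowest edgeR adjusted p = 0.859).

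Tie1 encodes the orphan partner of TIE2, and its counts were the lowest of the 10 genes, so that counting error alone was about 10.4% of the mean in KO Treg. Its level was 11.3, 8.22, 11.97 and 15.4 CPM in KO Treg 1 to 4. It was 13.8, 8.79, 12.9 and 14.3 CPM in KO vehicle 1 to 4, and 12.5, 12.3, 16.7 and 11.5 CPM in WT vehicle 1 to 4. The log2 fold changes of Tie1 were -0.08 ± 0.21 (SE) for KO vehicle against WT vehicle, -0.09 ± 0.21 for KO Treg against KO vehicle and -0.17 ± 0.21 for KO Treg against WT vehicle. All groups overlapped and none of these differences passed (lowest edgeR adjusted p = 0.922). The libraries lowest for Tie1, KO Treg 2 and KO vehicle 2, were the ones with the highest ratio of Tek to Tie1, 3.01 and 2.27, against 1.16 to 1.86 in the others. Tie1 is the denominator of this ratio, so a low Tie1 level raises it by arithmetic.

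Angpt1 encodes the agonist ligand of TIE2, made by mural and stromal cells. It averaged 14.2 ± 3.17 CPM in KO Treg, 11.9 ± 1.36 CPM in KO vehicle and 18.3 ± 1.23 CPM in WT vehicle (SD, n = 4). All 4 KO vehicle libraries (10.2 to 13.2 CPM) lay below all 4 WT vehicle libraries (17.2 to 19.5 CPM). It did not pass (log2 fold change -0.62 ± 0.17 SE, unadjusted p = 0.00246, edgeR adjusted p = 0.146). Groups did not overlap for 6.51% of all genes tested in this comparison, and for 1.63% in KO Treg against WT vehicle. KO Treg libraries ran from 10.3 to 17.0 CPM, below every WT vehicle library, also without a call (log2 fold change -0.36 ± 0.17 SE, edgeR adjusted p = 1). Angpt2, the ligand that endothelial cells release during remodelling, averaged 6.11 ± 2.81 CPM in KO Treg, 5.32 ± 1.47 CPM in KO vehicle and 6.77 ± 1.295 CPM in WT vehicle. Ptprb, the endothelial phosphatase that restrains TIE2, averaged 141 ± 26.5 CPM in KO Treg, 166 ± 8.90 CPM in KO vehicle and 142 ± 11.0 CPM in WT vehicle.

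Eng encodes endoglin, the endothelial co-receptor for BMP9 that works with the kinase ALK1. Its level was 133, 110, 127 and 137 CPM in KO Treg 1 to 4. It was 204, 132, 126 and 130 CPM in KO vehicle 1 to 4, and 88.1, 126, 160 and 174 CPM in WT vehicle 1 to 4. KO vehicle 1 stood above every other library, while the other 3 KO vehicle libraries were within the range of KO Treg. The log2 fold changes were 0.12 ± 0.20 (SE) for KO vehicle against WT vehicle, -0.23 ± 0.20 for KO Treg against KO vehicle and -0.11 ± 0.20 for KO Treg against WT vehicle, and none passed (lowest edgeR adjusted p = 0.822). Without the 2 libraries with placental transcripts, which include KO vehicle 1, the first was -0.08 and the second 0.03. Acvrl1, which encodes ALK1, averaged 63.8 ± 6.86 CPM in KO Treg, 63.8 ± 4.85 CPM in KO vehicle and 63.7 ± 8.29 CPM in WT vehicle.

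Pecam1 encodes CD31, an adhesion molecule at contacts between endothelial cells that platelets and leukocytes also carry. Its level was 655, 597, 605 and 607 CPM in KO Treg 1 to 4. It was 667, 508, 560 and 617 CPM in KO vehicle 1 to 4, and 525, 536, 543 and 613 CPM in WT vehicle 1 to 4. Over all 12 libraries the SD of Pecam1 was 8.73% of the mean, the smallest of the 10 genes, against a median of 19.9% over all genes tested. The log2 fold changes were 0.09 ± 0.12 (SE) for KO vehicle against WT vehicle, 0.07 ± 0.12 for KO Treg against KO vehicle and 0.15 ± 0.12 for KO Treg against WT vehicle, and none passed (lowest edgeR adjusted p = 0.839).

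Cdh5 encodes VE-cadherin, the adherens junction protein that defines endothelium. Its level was 149, 97.5, 111 and 125 CPM in KO Treg 1 to 4. It was 169, 94.8, 108 and 124 CPM in KO vehicle 1 to 4, and 93.4, 100.3, 104 and 149 CPM in WT vehicle 1 to 4. Each group held 1 library near or above 149 CPM and others near 100 CPM, so the spread within groups exceeded the differences between their means. The log2 fold changes were 0.15 ± 0.19 (SE) for KO vehicle against WT vehicle, -0.03 ± 0.19 for KO Treg against KO vehicle and 0.12 ± 0.19 for KO Treg against WT vehicle, and none passed (lowest edgeR adjusted p = 0.822). The genes whose log2 CPM followed Cdh5 most closely over the 12 libraries were Eva1b, Larp1, Mgat2, Slit3 and Znrf2, with Pearson r of 0.94, 0.93, 0.92, 0.92 and 0.90, picked by that r and given without a test.

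Emcn encodes endomucin, a sialomucin of capillary and venous endothelium. Its level was 33.2, 39.1, 33.4 and 26.2 CPM in KO Treg 1 to 4. It was 41.0, 32.3, 36.1 and 43.4 CPM in KO vehicle 1 to 4, and 37.9, 39.9, 36.7 and 44.2 CPM in WT vehicle 1 to 4. KO Treg had 3 libraries below all WT vehicle libraries, and KO Treg 2 was within their range. The log2 fold changes were -0.05 ± 0.14 (SE) for KO vehicle against WT vehicle, -0.21 ± 0.14 for KO Treg against KO vehicle and -0.27 ± 0.14 for KO Treg against WT vehicle. None passed (lowest edgeR adjusted p = 0.727), and the unadjusted p of the last was 0.0789. Without KO Treg 4, the lowest library, the difference from KO vehicle was -0.10 and that from WT vehicle -0.17. Within the lower number series, which leaves out KO Treg 3 and KO Treg 4, they were -0.059 and -0.096. Without KO vehicle 4 the difference between KO Treg and KO vehicle was -0.13, and without the libraries rich in brown-like transcripts it was -0.34.

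Vwf encodes von Willebrand factor, which endothelial cells store and release to bind platelets and which platelets also store. Its level was 24.9, 29.0, 23.6 and 22.7 CPM in KO Treg 1 to 4. It was 22.5, 21.9, 20.04 and 28.3 CPM in KO vehicle 1 to 4, and 34.98, 28.2, 33.8 and 25.0 CPM in WT vehicle 1 to 4. KO vehicle had 3 libraries below all WT vehicle libraries, while KO vehicle 4 lay within their range. The log2 fold change was -0.39 ± 0.15 (SE) for KO vehicle against WT vehicle, with a 95% interval of -0.72 to -0.07, an unadjusted p of 0.02005, rank 849, and no call (edgeR adjusted p = 0.287). It was 0.11 ± 0.15 for KO Treg against KO vehicle (edgeR adjusted p = 0.908) and -0.28 ± 0.15 for KO Treg against WT vehicle (edgeR adjusted p = 1). Without the 3 libraries rich in brown-like adipocyte transcripts, among them WT vehicle 1 with the highest Vwf, the first of these was -0.20.

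The 6 platelet symbols, of which Pf4 made up most and 1 was at 0 in every library, summed to 83.0 to 116 CPM in KO Treg, 123 to 148 CPM in KO vehicle and 86.4 to 102 CPM in WT vehicle. The 4 sums of KO vehicle lay above those of both other groups, as did the levels of Pf4 alone (110 to 130 CPM in KO vehicle). Over the 12 libraries Pf4 averaged 97.9 CPM and Itga2b, the next most abundant, 7.42 CPM. The sums therefore follow Pf4 and are not a measure of platelets alone. Of single genes tested, 6.51% had groups that did not overlap in KO vehicle against WT vehicle. In KO Treg against KO vehicle that share was 5.04%. No platelet gene was called, and in KO vehicle against WT vehicle 3 of the 4 tested were above 0 and Itga2b, the platelet integrin, was at -0.24 on the log2 scale. The 6 leukocyte symbols, led by Lyz2 and Cd68, summed to 80.6 to 158 CPM in KO Treg, 124 to 183 CPM in KO vehicle and 90.7 to 162 CPM in WT vehicle. Their part in the levels of Pecam1 and Vwf was not tested.

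**Figure D3:**
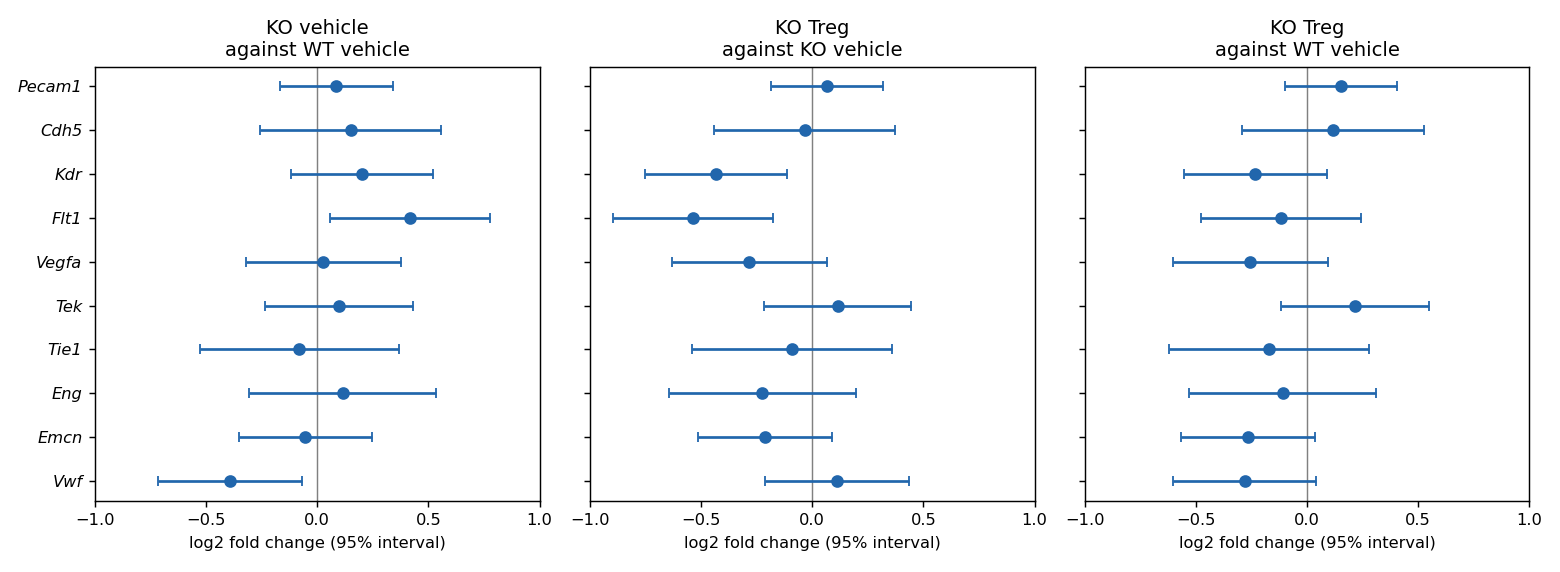
Log2 fold change of each of the 10 genes in the 3 comparisons (first-named group over second), as points with 95% intervals from the edgeR fit, not adjusted for the number of genes. Intervals leave out 0 for Flt1 and Vwf in KO vehicle against WT vehicle and for Kdr and Flt1 in KO Treg against KO vehicle, and none of these passed after adjustment.

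Each 95% interval gives a range for a gene in a comparison. The intervals are not adjusted for the number of genes, so they do not jointly bound all the changes. Over the 10 genes and 3 comparisons, the lowest fold inside a 95% interval was 0.538, for Flt1 in KO Treg against KO vehicle, and the highest was 1.71, for Flt1 in KO vehicle against WT vehicle. For Pecam1 the fold interval was 0.890 to 1.26 (KO vehicle against WT vehicle), 0.879 to 1.25 (KO Treg against KO vehicle) and 0.932 to 1.32 (KO Treg against WT vehicle). For Cdh5 it was 0.836 to 1.47 (KO vehicle against WT vehicle), 0.736 to 1.296 (KO Treg against KO vehicle) and 0.817 to 1.44 (KO Treg against WT vehicle). A failure to pass the threshold does not show that the groups were alike within these intervals.

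The 10 genes did not vary as 1 block. Over the 45 pairs the median Pearson r of log2 CPM across the 12 libraries was 0.06, from -0.46 to 0.87, and 26 pairs were above 0. The median r of the 10 genes with all other genes tested was 0.01. Pecam1 and Cdh5 were the closest pair (Pearson r = 0.87, Spearman rho = 0.93), followed by Kdr with Flt1 and by Cdh5 with Eng (Pearson r = 0.74, Spearman rho = 0.73). These values are descriptions over libraries that share the same scaling, with no test. KO vehicle 1 was above the mean of 12 libraries for 9 of the 10 genes and KO vehicle 4 for 8, while KO Treg 3 and KO vehicle 3 were so for 3 each. The order of group means was KO vehicle, WT vehicle, KO Treg from high to low for 4 genes (Kdr, Flt1, Vegfa and Eng), and the other 6 genes were spread over 4 other orders. Only the neighbours in Flt1 (KO vehicle above WT vehicle) had libraries that did not overlap.

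**Figure D4:**
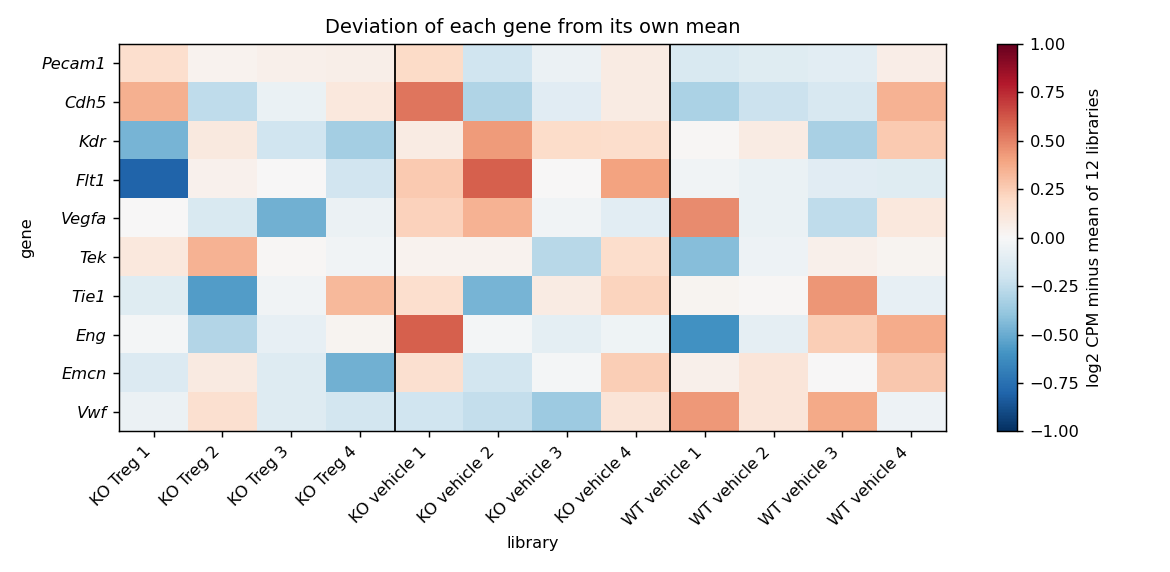
Deviation of each gene's log2 CPM from its mean over the 12 libraries, with genes as rows and libraries as columns, red above and blue below the mean. Libraries of a group do not share 1 colour pattern; KO vehicle 1 is above the mean for 9 of 10 genes, and KO Treg 1 is far below it for Flt1 and Kdr.

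A wider set of 87 listed symbols of vessel biology, of which 80 were tested, held 0 called genes in each of the 3 comparisons in edgeR. For KO vehicle against WT vehicle, 47 were above 0 and 33 below, with a median log2 fold change of 0.06. An unadjusted p under 0.05 was found for 6 in each direction, 15% of the 80 against 12.4% of all genes tested. For KO Treg against KO vehicle, 35 were above 0 and 45 below, with a median of -0.05, and 3 higher and 6 lower had an unadjusted p under 0.05, 11.25% of the 80 against 8.77% of all genes. For KO Treg against WT vehicle, 36 were above 0 and 44 below, with a median of -0.02, and the unadjusted counts were 2 higher and 1 lower, 3.75% of the 80 against 2.87% of all genes.

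Among other surface genes of endothelium, Cd34, which stromal progenitors also carry, averaged 113 ± 9.17 CPM in KO Treg, 82.2 ± 2.48 CPM in KO vehicle and 119 ± 15.5 CPM in WT vehicle (SD, n = 4). All 4 KO vehicle libraries (79.4 to 84.8 CPM) lay below every KO Treg library (100.3 to 122 CPM) and every WT vehicle library (95.9 to 130 CPM). Its log2 fold changes were -0.53 ± 0.12 (SE) for KO vehicle against WT vehicle (edgeR adjusted p = 0.0835) and 0.46 ± 0.12 for KO Treg against KO vehicle (edgeR adjusted p = 0.270), so neither passed. Of the 28 surface genes tested, 3 had groups that did not overlap in KO vehicle against WT vehicle, Cd34 lower and Gpihbp1 and Aqp1 higher, where 6.51% of all genes had such groups. Gpihbp1, which anchors lipoprotein lipase in capillaries, was at 213 to 231 CPM in KO vehicle and 131 to 193 CPM in WT vehicle, a log2 fold change of 0.50 ± 0.15 (SE) that did not pass (edgeR adjusted p = 0.165). Aqp1, a water channel, was at 1182 to 1562 CPM in KO vehicle and 858 to 1068 CPM in WT vehicle, a difference of 0.54 ± 0.16 (log2, SE) that did not pass either (edgeR adjusted p = 0.165). In KO Treg against KO vehicle the genes without overlap were Cd34 (higher), Gpihbp1 (124 to 186 CPM in KO Treg) and Cd93 (both lower), against 5.04% of all genes, and in KO Treg against WT vehicle there was Egfl7 (higher), against 1.63%. Gpihbp1, Aqp1, Cd93 and Egfl7 were named after their values were seen. Cldn5, a tight junction protein, averaged 38.4 ± 7.03 CPM in KO Treg, 38.2 ± 7.52 CPM in KO vehicle and 28.2 ± 7.998 CPM in WT vehicle. Esam, an endothelial adhesion molecule, averaged 411 ± 35.2 CPM in KO Treg, 362 ± 35.7 CPM in KO vehicle and 387 ± 32.3 CPM in WT vehicle. Plvap, a protein of capillary fenestrae, averaged 89.9 ± 20.1 CPM in KO Treg, 121 ± 51.5 CPM in KO vehicle and 106 ± 36.1 CPM in WT vehicle. None of these 3 passed in any comparison. The list of endothelial junction and surface genes (28 of 29 tested) had 15, 16 and 16 genes above 0 in KO vehicle against WT vehicle, KO Treg against KO vehicle and KO Treg against WT vehicle.

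Of 12 endothelial transcription factors tested (13 listed), 9 were above 0 in KO vehicle against WT vehicle and 5 in KO Treg against KO vehicle, with median log2 fold changes of 0.13 and -0.24. Of 12 Notch and artery-vein genes, 8 and 4 were above 0 in these comparisons (medians 0.07 and -0.19). Of 9 genes of the BMP9, ALK1 and endoglin axis, 6 and 2 were above 0 (0.09 and -0.06). Of 10 hypoxia response genes tested (12 listed, among them the regulators Hif1a and Epas1), 6 and 3 were above 0 (0.03 and -0.09). Against WT vehicle, KO Treg had 6 transcription factors, 5 Notch and artery-vein genes, 4 of the BMP9 axis and 4 hypoxia genes above 0. No gene of these lists was called in any comparison by edgeR. Of all genes tested, 49.2% were above 0 in KO vehicle against WT vehicle. Below 0 were 50.3% in KO Treg against KO vehicle and 51% against WT vehicle. KO vehicle 1 had the highest sums for transcription factors (545 CPM), Notch and artery-vein genes (251 CPM) and hypoxia genes (2193 CPM). BMP9 axis genes were highest in WT vehicle 2 (986 CPM). The first 2 comparisons share the KO vehicle libraries, and the part of KO vehicle 1 in the list medians was not tested.

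**Figure D5:**
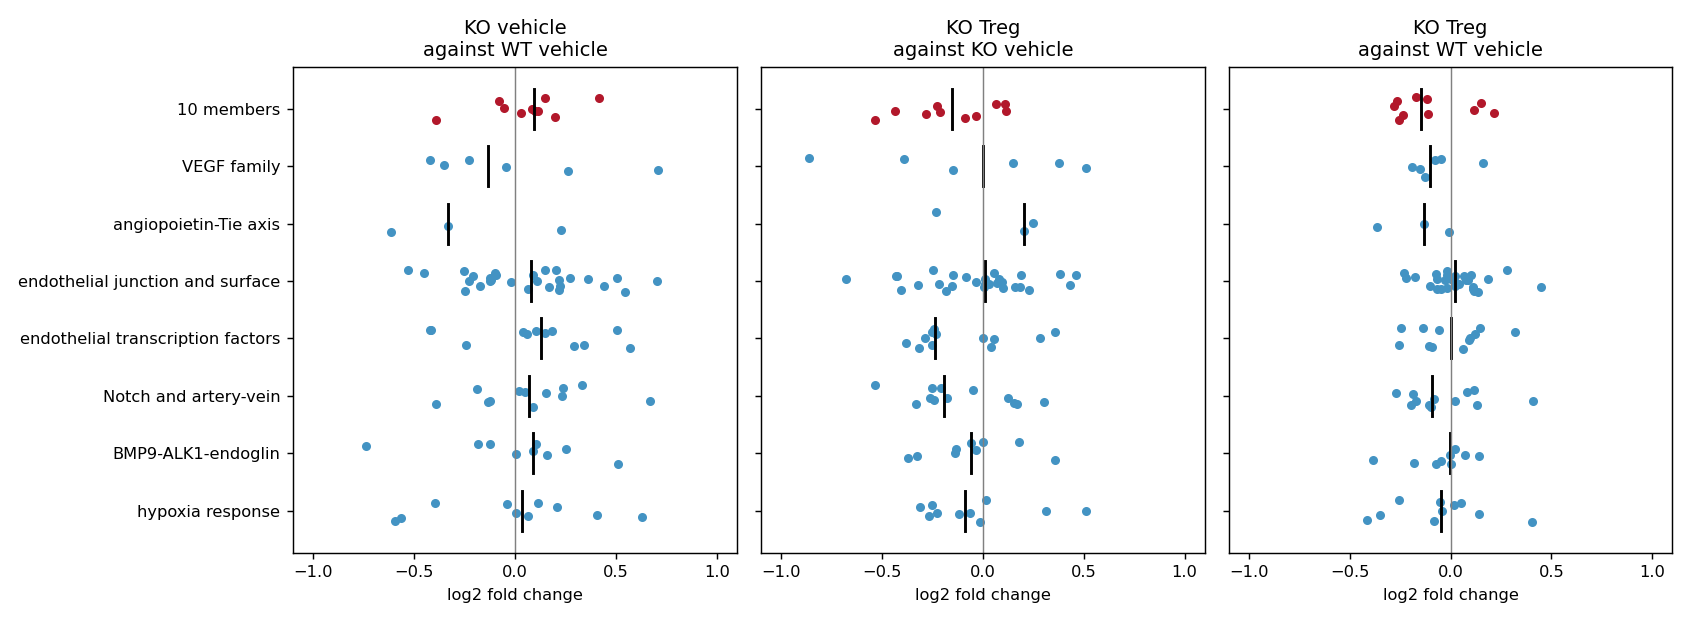
Log2 fold change of every tested gene in the 10 members and 7 wider lists for each comparison (first-named group over second), with 1 point per gene and a black bar at the list's median; vertical jitter has no meaning. The medians of the 7 wider lists lie between -0.33 and 0.20 and no point is a called gene.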

How the data were processed

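Per the labels' protocols, RNA from gonadal fat was made into QuantSeq 3' libraries, so a count stands for a read near a transcript's end and no length correction applies. The submitters' processing notes name BWA 0.7.12, SAMtools 1.3.1, TopHat2 2.1.1, HTSeq 0.6.1 and mm10; which tool did what, the annotation and strand handling: not given in the sources used here. Each library's table, as deposited, holds whole-number counts for 20632 gene symbols. These counts were filtered with filterByExpr (12175 genes kept), TMM-scaled and fitted in edgeR 4.0.16 (robust quasi-likelihood test, R 4.3.3) with 3 groups of 4 and without covariates. Adjustment of p-values was over all genes tested by Benjamini-Hochberg (threshold 0.05). The SE is the log2 fold change divided by the square root of F. Correlations used log2 CPM with a prior count of 2. Intervals of 95% use the fit's degrees of freedom.

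Replicate numbers follow accession order, and p-values measure the spread between these animals; whether they shared litters is not stated. The 10 genes, the wider lists and the tests were chosen with earlier results of these data known. Named beyond the 10 were fixed partners (VEGF, angiopoietin, endoglin and junction genes), called genes of the lists (there were none), the 5 genes most like Cdh5 and Vegfa, and the 2 most abundant genes of marker lists for other cells. Alternatives were DESeq2 1.42.0, scaling by RLE or upper quartile, other filters, fits of 2 groups, the number series as covariate or its lower part alone, and leaving out libraries. Tests were checked on simulated data. At these depths a count of 3 is 0.231 to 0.540 CPM. Reads carry no molecular identifiers in the tables, so such limits cover counting error only.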

Additional observations from a re-analysis of the deposited data

Results flagged for a closer look

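Of the 30 sets of 4 libraries (10 genes in 3 groups), 2 held a library far from the other 3, about the number that chance gives at 1 in 20. Pecam1 was at 655 CPM in KO Treg 1, while the other KO Treg libraries lay between 597 and 607 CPM. Eng was at 204.0 CPM in KO vehicle 1, while the other KO vehicle libraries lay between 126 and 132 CPM. KO vehicle 1 is also 1 of the 2 libraries with placental transcripts (30.5 CPM over 8 symbols), and the part of these in its Eng level was not tested.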

How the results depend on the processing

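No member was called by edgeR or DESeq2 under any alternative or without any library, in any comparison. Genes called for KO vehicle against WT vehicle numbered 34, and 259 with DESeq2, 21 with the stricter filter, 3 without the 2 placental libraries, 0 with the number series as covariate, 0 within its lower part and 0 without the 3 libraries rich in brown-like transcripts (added after seeing the data); leaving out 1 library gave 1 to 125. For KO Treg against KO vehicle there was 1, and 68 with DESeq2, against 0 with RLE, the stricter filter, the 2 groups alone, the series as covariate, its lower part, or without the placental or brown-like libraries; leaving out 1 library gave 0. For KO Treg against WT vehicle there were 0, and 1 with DESeq2. The causes were not tested. Directions of small differences turned. Without the placental libraries, KO vehicle against WT vehicle (log2) was -0.0435 for Cdh5, -0.0832 for Eng and -0.016 for Vegfa, and KO Treg against KO vehicle was 0.25 for Cdh5, 0.0342 for Eng and 0.105 for Tie1. Without the brown-like libraries it was 0.0510 for Emcn and 0.0521 for Tie1 in the first, and -0.0455 for Pecam1 and -0.0064 for Vwf in the second. With the series as covariate Tie1 was 0.0817 and Vegfa -0.0839 in the first. Within its lower part Vegfa was -0.12 in the first, Cdh5 0.017 in the second and Eng 0.19 in KO Treg against WT vehicle. Leaving out 1 library turned the sign in 11 differences. In KO vehicle against WT vehicle these ranged from -0.0440 to 0.32 (Cdh5), -0.0849 to 0.17 (Vegfa), -0.0205 to 0.17 (Tek), -0.17 to 0.0403 (Tie1), -0.0837 to 0.25 (Eng) and -0.14 to 0.0026 (Emcn). In KO Treg against KO vehicle they ranged from -0.14 to 0.16 (Cdh5) and -0.24 to 0.0502 (Tie1), and in KO Treg against WT vehicle from -0.0017 to 0.29 (Cdh5), -0.21 to 0.0385 (Flt1) and -0.27 to 0.0274 (Eng). The differences of Flt1 in the first 2 comparisons, of Kdr in the second and of Vwf in the first kept their sign throughout. Without 1 library they were 0.30 to 0.50 and -0.62 to -0.37 (Flt1), -0.55 to -0.34 (Kdr) and -0.52 to -0.33 (Vwf). No scaling moved the median of all genes by over 0.1, but each of them centres most genes near 0, so this is no check of the scaling. No paired analysis was possible because the labels share no replicate numbers between groups. Depth limits Tie1 most.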

Other observations

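Genes of the cells that wrap vessels were measured beside the endothelial genes. The 8 mural cell symbols, led by Pdgfrb, a receptor of pericytes, and Mcam, summed to 311 to 344 CPM in KO Treg, 282 to 358 CPM in KO vehicle and 283 to 322 CPM in WT vehicle, with 0 of 8 called in each comparison by edgeR and 0 at an unadjusted p under 0.05. Smooth muscle genes ranged far more widely, with summed levels of 170 to 1101 CPM in KO Treg, 267 to 744 CPM in KO vehicle and 207 to 1955 CPM in WT vehicle, led by Acta2 and Myh11, with 0 of 6 called in each comparison by edgeR and 3 lower at an unadjusted p under 0.05 in KO vehicle against WT vehicle, where 12.4% of all genes tested had one. The 6 lymphatic endothelial symbols, of which 1 was at 0 in all libraries, summed to 101 to 141 CPM in KO Treg, 102 to 141 CPM in KO vehicle and 93.0 to 120 CPM in WT vehicle. Pdpn led these sums with a mean of 85.8 CPM over the 12 libraries, followed by Lyve1 with 21.3 CPM. Prox1 had 0 to 3 counts per library, so the sums are not a measure of lymphatic endothelium alone. Mesothelial (4 symbols), fibroblast (4) and epithelial (4) genes summed to 80.2 to 174 CPM, 292 to 592 CPM and 8.01 to 30.3 CPM over the 12 libraries. The 3 erythroid symbols summed to 24.7 to 137 CPM, with 2 (Hba-a1 and Hbb-b1) at 0 in every library, so the sums are those of Alas2 alone. Why the globin symbols had no counts was not tested.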
